A study of Mus musculus with 6 samples.

Results

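This comparison sets the livers of Cnot3+/- mice kept without food for 24 h against the livers of wild-type mice fed normal chow. It rests on 4 arrays, 2 in each group, of the 6 in the series, and every gene on the arrays was compared, 18193 in all. All mice were 8-week-old male C57BL/6J mice, and the fasted mice were housed 1 to a cage during the fast, per the labels. The remaining 2 arrays hold livers of wild-type mice fasted for 24 h and serve here as values to be read beside the comparison. No group combines the Cnot3+/- genotype with feeding, so within this comparison an effect of the fast and an effect of the genotype cannot be told apart. Which part of Cnot3 was removed is not in the labels.

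CNOT3 belongs to CCR4-NOT, the main deadenylase machinery of the cell, whose trimming of poly(A) tails is usually the first step in breaking down an mRNA. In the fed liver, insulin drives the SREBP-1c programme that turns sugar into fatty acids, and sterol synthesis runs under SREBP-2. During a fast insulin falls while glucagon and glucocorticoids act on the liver, PPARalpha switches on fatty acid oxidation, and FoxO transcription factors and CREB turn on glucose production.

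Values are RMA log2 levels, so a difference of 1 is a doubling, and each gene is read from its brightest probe set that names a single gene. The array medians lay between 5.59 and 5.64, and a group mean at or under 5.64 was not shown to be above background. Where only 1 group was under that level, the other is given as at least so many fold from 5.64. The fed arrays correlated with each other at r = 0.994 and the fasted Cnot3+/- arrays at 0.993 across genes, which are not independent replicates. Between the pairs made of 1 fed and 1 fasted Cnot3+/- array, 676 to 924 genes lay at least 2-fold apart, against 163 genes within the fed pair and 177 within the Cnot3+/- pair. The first Cnot3+/- array had the highest 3′ over 5′ signal of the 6 arrays for actin (log2 1.06, against 0.43 to 0.62 on the others), Gapdh (0.31, against -0.14 to 0.06) and pyruvate carboxylase (4.12, against 1.87 to 3.29), but not for the transferrin receptor (2.12, against 1.74 to 2.24). This is a measure of RNA or labelling quality, and its part in the results was not tested. Hepatocyte markers were level between the groups, with none of 7 past the test and albumin (Alb) reading 15.26 and 15.20 in fed liver and 15.17 and 15.17 in fasted Cnot3+/- liver.

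The fasted Cnot3+/- livers had lower levels of genes that make fatty acids and sterols, and higher levels of many genes of fat burning, lipid storage and stress signalling. In limma's test on all 6 arrays with Benjamini-Hochberg adjustment, 1375 genes (7.56% of those tested) passed at an adjusted p under 0.05. Of these, 706 rose (3.88%) and 669 fell (3.68%). The median rise was 0.86 and the median fall was -0.92 on the log2 scale, against a median of 0.00 over all genes. The change was 2-fold or more for 523 of them, 245 up and 278 down, and 4-fold or more for 40 up and 50 down. The groups did not overlap for any of the 1375 genes, as for 48.0% of all genes. With 2 arrays against 2 an exact permutation test of a single gene cannot go below p = 0.333, so each call rests on the spread pooled across genes. The labels call the samples biological replicates without naming the animals, so p-values measure the spread between these samples. When each array was left out in turn, 367 of the 1375 calls remained each time, 302 of them at least 2-fold.

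**Figure D1:**
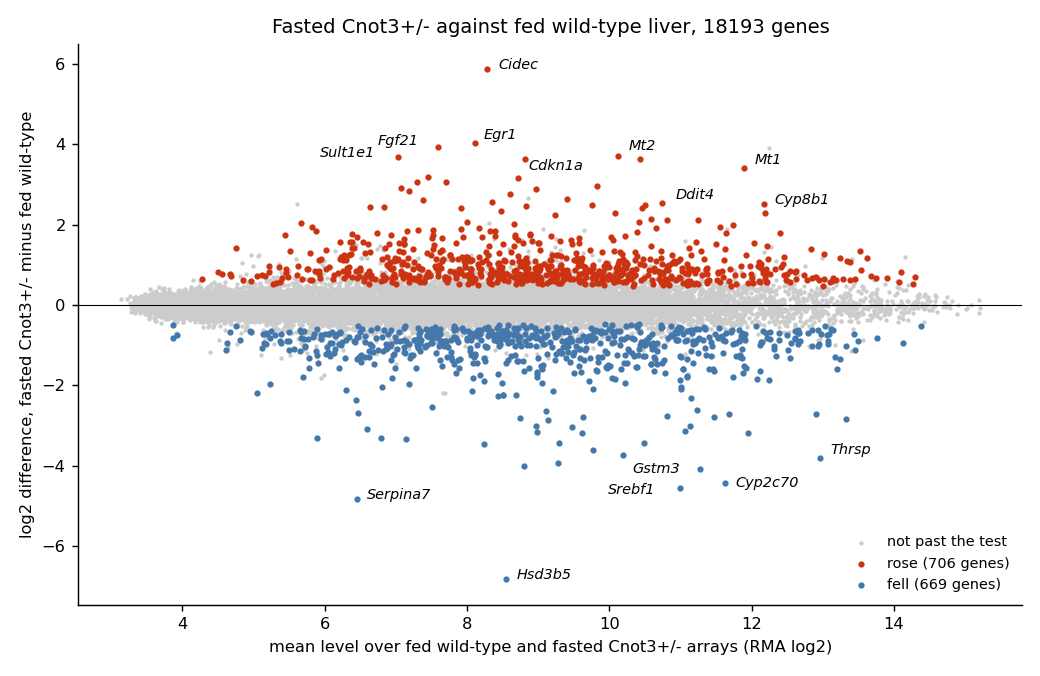
Log2 difference between fasted Cnot3+/- and fed wild-type liver (y axis) against the mean RMA log2 level over the 4 arrays (x axis), with 1 point per gene. The 706 genes that rose (red) and 669 that fell (blue) in limma's test are spread over the whole range of levels, and Hsd3b5 and Cidec lie farthest from 0.

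Most genes of fatty acid synthesis were lower. Of 22 measured genes of the pathway, 15 fell and 1 rose, and the median difference was -1.42. Srebf1, which encodes the lipogenic factor SREBP-1c, read 13.03 and 13.51 on the fed arrays and 8.83 and 8.58 on the fasted Cnot3+/- arrays. Its difference was -4.57 (SE 0.19, limma adjusted p = 0.000183), the largest fall among genes above background in both groups. Thrsp, an insulin- and thyroid hormone-induced lipogenic factor, went from 14.87 and 14.85, among the brightest signals on the arrays, to 11.12 and 10.98 (difference -3.82, SE 0.16, adjusted p = 0.000183). Neither gene's groups came near each other.

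Enzymes along the path from citrate to long fatty acids fell, each with its groups well apart. ATP citrate lyase, Acly, read 13.09 and 12.98 in fed liver and 10.21 and 10.44 in fasted Cnot3+/- liver, a difference of -2.71 (SE 0.13, adjusted p = 0.000394). Acetyl-CoA carboxylase 1, Acaca, fell by 1.48 (SE 0.18, adjusted p = 0.00575), and fatty acid synthase, Fasn, fell by 3.18 (SE 0.21, adjusted p = 0.00102) from 13.37 and 13.70 to 10.10 and 10.61. Elovl6, which lengthens the palmitate that Fasn makes, fell by 3.01 (SE 0.16, adjusted p = 0.000394), and Mid1ip1, which helps acetyl-CoA carboxylase to polymerise, fell by 3.62 (SE 0.33, adjusted p = 0.00249). The exception was Elovl5, an elongase of polyunsaturated fatty acids, which rose from 12.98 and 12.95 to 13.56 and 13.66 (difference 0.64, SE 0.12, adjusted p = 0.0202). In 10 of the 16 genes that passed, all of them falls, the call remained whichever array was left out, and for Elovl5 the rise was lost with an array left out.

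Most measured cholesterol synthesis genes fell. Of 21 on the list, 14 fell, 1 rose and 6 did not pass, with a median of -1.47. Farnesyl diphosphate synthase, Fdps, read 12.22 and 11.91 on the fed arrays and 7.92 and 8.71 on the fasted Cnot3+/- arrays, a difference of -3.75 (SE 0.40, adjusted p = 0.00335). Idi1, which isomerises isopentenyl diphosphate, fell by 3.44 (SE 0.30, adjusted p = 0.00232), and the sterol dehydrogenase Nsdhl fell by 3.18 (SE 0.25, adjusted p = 0.00183). Lanosterol synthase, Lss, went from 10.23 and 10.48 to 8.58 and 8.73 (difference -1.70, SE 0.14, adjusted p = 0.00203), and a dimmer probe set specific to the gene differed by -2.66. Stard4, a cholesterol carrier, fell by 2.85 (SE 0.26, adjusted p = 0.00249). These falls lay far outside the distance between the arrays of a group, and 12 of the 15 calls on the list remained whichever array was left out.

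The 2 INSIG genes, whose products hold the SREBPs in the endoplasmic reticulum when sterols are plentiful, moved in opposite directions. Insig1 read 10.86 and 10.63 in fed liver and 9.48 and 8.90 in fasted Cnot3+/- liver, a fall of -1.56 (SE 0.20, adjusted p = 0.00609). Insig2, whose liver transcript is known to be repressed by insulin, read 11.52 and 11.47 in fed liver and 13.23 and 13.35 in fasted Cnot3+/- liver, a rise of 1.79 (SE 0.12, adjusted p = 0.00108). It was the only riser of the cholesterol synthesis list. In fasted wild-type liver Insig2 read 13.24 and 13.09, and its difference between the fasted groups was 0.12 (adjusted p = 0.907).

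Promoters were read from RefSeq (GRCm38.p6), which gave a promoter for 14452 of the tested genes, from 250 bases before the start of transcription to 50 bases after it. The CCAAT box, the letters CCAAT on either strand, is the site of the factor NF-Y, a partner of the SREBPs at sterol gene promoters. It was found in 16 of the 17 cholesterol synthesis promoters in the table (94.1%), against 38.2% of all 14452, 45.1% of the genes that fell and 39.2% of those that rose. The window of Dhcr7 that was read holds none, and when any promoter listed for a gene was counted the shares were 17 of 17 and 42.0%. Insig2, which rose, held 3 matches, and the 5 genes of the 17 that did not pass the test held at least 1 each. A match is a stretch of letters and not a shown binding site. The following windows of 200 bases before the start show the boxes in 3 of the fallen genes, and in Hmgcs1, the HMG-CoA synthase of the pathway, the sterol element core TCACCCCAC as well, with each match in capitals (ATTGG is CCAAT read on the other strand).
Nsdhl, chrX:72918321-72918520, plus strand: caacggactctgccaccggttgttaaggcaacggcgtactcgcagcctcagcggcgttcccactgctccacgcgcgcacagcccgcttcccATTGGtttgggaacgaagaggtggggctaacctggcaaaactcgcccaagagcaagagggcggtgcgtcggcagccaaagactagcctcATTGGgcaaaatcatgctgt
Lss, chr10:76531405-76531604, plus strand: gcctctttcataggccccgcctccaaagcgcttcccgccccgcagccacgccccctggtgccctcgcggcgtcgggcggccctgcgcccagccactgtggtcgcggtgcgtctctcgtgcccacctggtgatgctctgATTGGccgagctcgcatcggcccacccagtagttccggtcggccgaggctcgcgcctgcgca
Idi1, chr13:8885406-8885605, plus strand: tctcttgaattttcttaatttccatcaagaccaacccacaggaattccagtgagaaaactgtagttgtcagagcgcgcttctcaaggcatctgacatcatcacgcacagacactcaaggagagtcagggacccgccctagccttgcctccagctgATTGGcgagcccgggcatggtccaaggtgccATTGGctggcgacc
Hmgcs1, chr13:119690151-119690350, plus strand: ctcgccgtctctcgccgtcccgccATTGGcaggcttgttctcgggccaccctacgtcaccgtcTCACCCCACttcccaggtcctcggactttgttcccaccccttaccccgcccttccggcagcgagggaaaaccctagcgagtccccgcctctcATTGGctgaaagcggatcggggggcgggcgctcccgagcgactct
Hmgcs1 was the only one of the 17 to hold the sterol element core, which 0.554% of all promoters hold, and it fell by 1.27 (SE 0.17, adjusted p = 0.00778) from 12.16 and 11.96 to 11.01 and 10.57. Showing the boxes in the first 3 genes was chosen after the shares were known.

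The E-box CACGTG, at which ChREBP and other basic helix-loop-helix factors bind, was found in 3 of 20 promoters of the fatty acid synthesis list (15%), against 9.02% of all promoters, 7.07% of the genes that fell and 11.8% of those that rose. It stands in front of Insig1, which fell, and of Elovl5, which rose, so the windows below hold the same letters upstream of genes that changed in opposite directions.
Insig1, chr5:28071212-28071411, plus strand: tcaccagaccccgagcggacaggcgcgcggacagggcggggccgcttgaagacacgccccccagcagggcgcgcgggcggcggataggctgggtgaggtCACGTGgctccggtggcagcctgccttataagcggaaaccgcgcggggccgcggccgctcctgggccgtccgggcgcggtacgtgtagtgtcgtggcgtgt
Elovl5, chr9:77917165-77917364, plus strand: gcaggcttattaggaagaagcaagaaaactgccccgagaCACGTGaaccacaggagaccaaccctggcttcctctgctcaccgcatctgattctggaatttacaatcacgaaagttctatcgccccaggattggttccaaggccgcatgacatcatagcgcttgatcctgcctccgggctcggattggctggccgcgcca
No direct repeat of AGGTCA with any 1 base between, on either strand, the shape of a PPAR element, was found in the 28 promoters of PPARalpha targets or the 27 of fatty acid oxidation, and only 6 of all promoters held one, so no such promoter is shown.

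**Figure D2:**
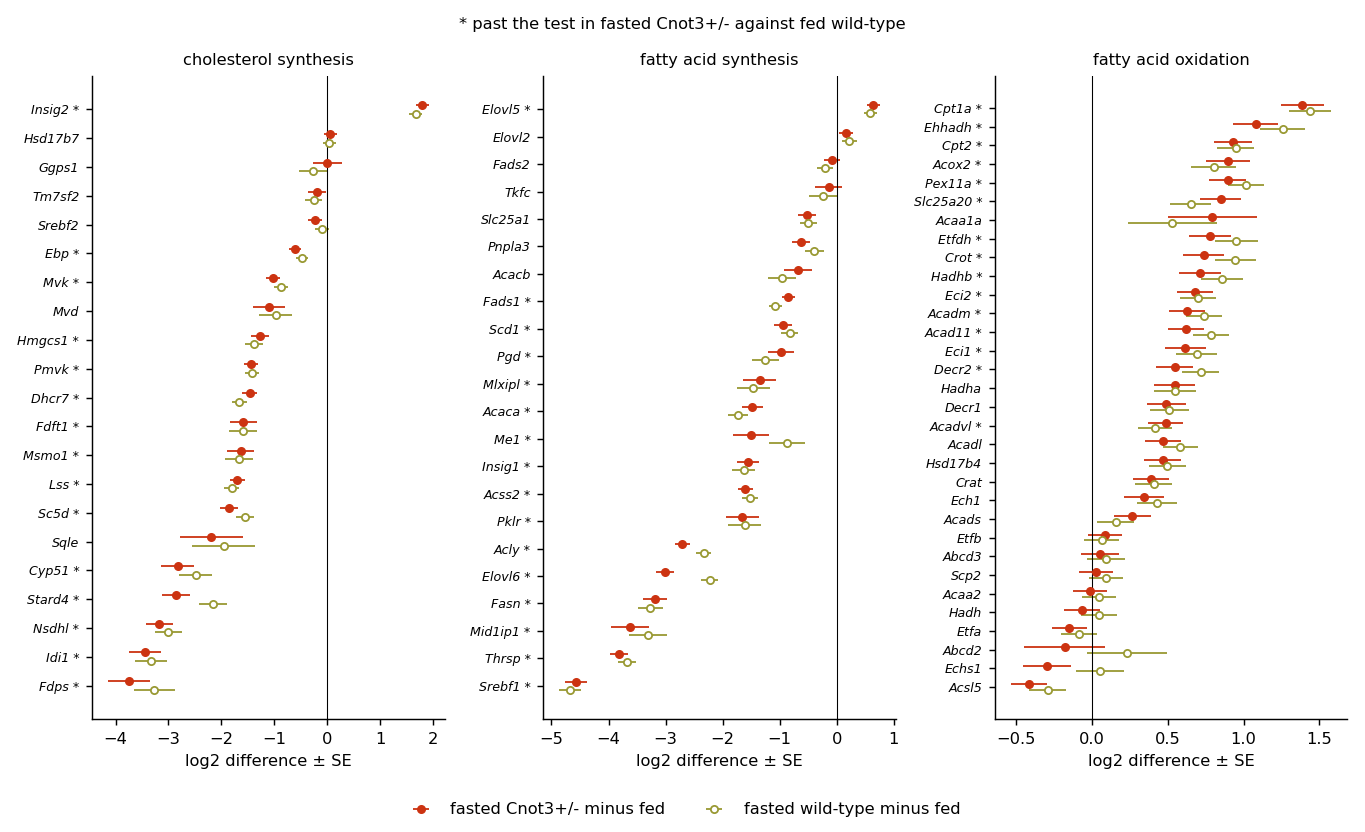
Log2 differences from fed wild-type liver (x axis, with SE) for each measured gene (y axis) of 3 lists, in fasted Cnot3+/- (filled) and fasted wild-type (open) liver, with a star at genes that passed limma's test in the fasted Cnot3+/- comparison. Synthesis genes lie left of 0 except Insig2, Elovl5 and a few near 0, and oxidation genes lie mostly right of 0.

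Genes of fatty acid import and oxidation rose. Of 31 measured PPARalpha targets 16 rose and 0 fell (median 1.08), and of 32 fatty acid oxidation genes, some of them on both lists, 15 rose and 0 fell (median 0.52). The carnitine transporter Slc22a5 read 8.92 and 8.93 on the fed arrays and 11.11 and 11.35 on the fasted Cnot3+/- arrays, a difference of 2.30 (SE 0.13, adjusted p = 0.000524). Carnitine palmitoyltransferase 1, Cpt1a, the gate for fatty acids into mitochondria, rose from 12.19 and 12.09 to 13.40 and 13.66 (difference 1.39, SE 0.14, adjusted p = 0.00288). Its inner-membrane partner Cpt2 rose by 0.93 (SE 0.12, adjusted p = 0.00712). For these named genes both fasted Cnot3+/- arrays stood above both fed arrays. Groups without overlap were a trait of every gene that passed and of 48.0% of all genes.

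Some peroxisomal genes of the pathway also rose, while the list of peroxisome biogenesis, of 30 measured genes, had 5 rises and 4 falls and a median of 0.05. The bifunctional enzyme Ehhadh read 12.66 and 13.04 in fed and 13.91 and 13.94 in fasted Cnot3+/- liver (difference 1.08, SE 0.15, adjusted p = 0.00787), and Pex11a, which promotes division of peroxisomes, rose by 0.90 (SE 0.12, adjusted p = 0.00751). The fatty acid transport protein Slc27a1 rose by 2.03 (SE 0.14, adjusted p = 0.00112), and the pantetheinase Vnn1 by 1.93 (SE 0.21, adjusted p = 0.00344). With each array left out in turn, 11 of the 16 calls among PPARalpha targets remained but only 4 of the 15 among oxidation genes, whose rises numbered 5 to 9 in those fits, lowest without either fed array. The mitochondrial carnitine carrier Slc25a20 was among those lost: its difference was 0.85, and its adjusted p went from 0.013 to as high as 0.0643, without the first fed array.

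Acyl-CoA thioesterases, which free fatty acids from coenzyme A, divided by gene. The rises were those of Acot1 (1.81, SE 0.19, adjusted p = 0.00344), Acot2 (1.55, SE 0.19, adjusted p = 0.00575), Acot8 (0.97, SE 0.13, adjusted p = 0.0065) and Acot12 (1.41, SE 0.20, adjusted p = 0.00932). Acot1 and Acot2 are near-identical neighbours whose probes may share signal. The falls were those of Acot11 (-0.98, SE 0.14, adjusted p = 0.00853) and Acot7 (-0.60, adjusted p = 0.0263). The call of Acot12 was lost when the second fed array was left out, and that of Acot7 was lost whichever array was left out.

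Lipid droplet genes rose in 5 of 19 cases and fell in none, with 3 rises and 2 falls when the first fed array was left out. Cidec, which fuses lipid droplets, read 4.83 and 5.87 on the fed arrays, around background, and 10.52 and 11.92 on the fasted Cnot3+/- arrays, which makes it at least 47.6-fold higher (adjusted p = 0.00242). Pnpla2, the lipase that starts triglyceride breakdown, read 9.74 on both fed arrays and 11.66 and 12.07 on the fasted Cnot3+/- arrays (difference 2.12, SE 0.16, adjusted p = 0.00145). A dimmer Pnpla2 probe set specific to the gene differed by 0.55 and did not pass (adjusted p = 0.148), so the size of its rise depends on the probe set. The droplet coat genes Plin2 (1.16, adjusted p = 0.0121) and Plin5 (1.41, adjusted p = 0.0198) also rose. Their calls were lost without the first fed array (Plin2, adjusted p = 0.0621) and without the first Cnot3+/- array (Plin5, adjusted p = 0.0764).

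Some genes for carrying metabolites into and out of mitochondria rose. Of 28 measured mitochondrial carriers 8 rose and 1 fell, and with each array left out in turn 4 or 5 rose and the calls of only 2, both named here, remained. The glutamate carrier Slc25a22 read 10.74 and 10.75 on the fed arrays and 12.67 and 12.80 on the fasted Cnot3+/- arrays, a difference of 1.99 (SE 0.12, adjusted p = 0.000722), and Slc25a34 rose by 1.14 (SE 0.14, adjusted p = 0.00523). The 55 measured genes of oxidative phosphorylation had 0 calls in limma's test, and their median difference was -0.05.

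Glucose metabolism moved unevenly. Of 21 gluconeogenesis genes 6 rose and 0 fell, among them the aspartate aminotransferase Got1 (1.34, SE 0.22, adjusted p = 0.0159), pyruvate carboxylase Pcx (0.68, SE 0.12, adjusted p = 0.0173) and Creb3l3, a fasting-induced transcription factor (0.94, SE 0.13, adjusted p = 0.0091). Only 1 of these 6 calls, that of Creb3l3, remained with every array left out, and the list had 7 rises without the first fed array and 1 to 3 without any other. In glycogen metabolism the phosphorylase Pygl fell from 13.56 and 13.53 to 12.62 and 12.56 (difference -0.96, SE 0.11, adjusted p = 0.00491). Ppp1r3b, which targets a phosphatase to glycogen, fell from 12.50 and 12.77 to 11.29 and 10.38 (difference -1.80, SE 0.36, adjusted p = 0.0272). This call was lost without either fed array and without the second Cnot3+/- array. Fructokinase, Khk, fell by 0.94 (SE 0.14, adjusted p = 0.0105; 0.0523 without the first fed array), while lactate dehydrogenase, Ldha, rose by 1.09 (SE 0.12, adjusted p = 0.00398).

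Several textbook fasting genes did not pass the test, and for them the fed arrays lay far apart, as did the fasted Cnot3+/- arrays for Pdk4. Igfbp1, an insulin-repressed secreted binding protein, read 12.26 and 8.33 on the fed arrays and 14.17 and 14.22 on the fasted Cnot3+/- arrays (difference 3.90, SE 1.06, adjusted p = 0.0758). Pdk4, which shuts off pyruvate dehydrogenase, read 6.51 and 8.08 in fed and 8.46 and 10.20 in fasted Cnot3+/- liver (2.04, SE 0.74, adjusted p = 0.165). The first fed array was the higher for Igfbp1 and the lower for Pdk4. Igfbp1 passed when either fed array was left out, with a difference of 5.87 without the first (adjusted p = 0.00237) and 1.94 without the second (adjusted p = 0.0439). The gluconeogenic genes Pck1 and G6pc, picked here for their role after their values were seen, read 13.93 and 11.74, and 12.72 and 11.79, on the fed arrays, so that in each case 1 fed array reached the range of the fasted arrays. Pck1 read 14.09 and 13.89 and G6pc 13.31 and 12.66 on the fasted Cnot3+/- arrays (differences 1.16 and 0.73, adjusted p = 0.33 and 0.264). Without the first fed array Pck1 passed, with a difference of 2.25 (adjusted p = 0.00434).

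**Figure D3:**
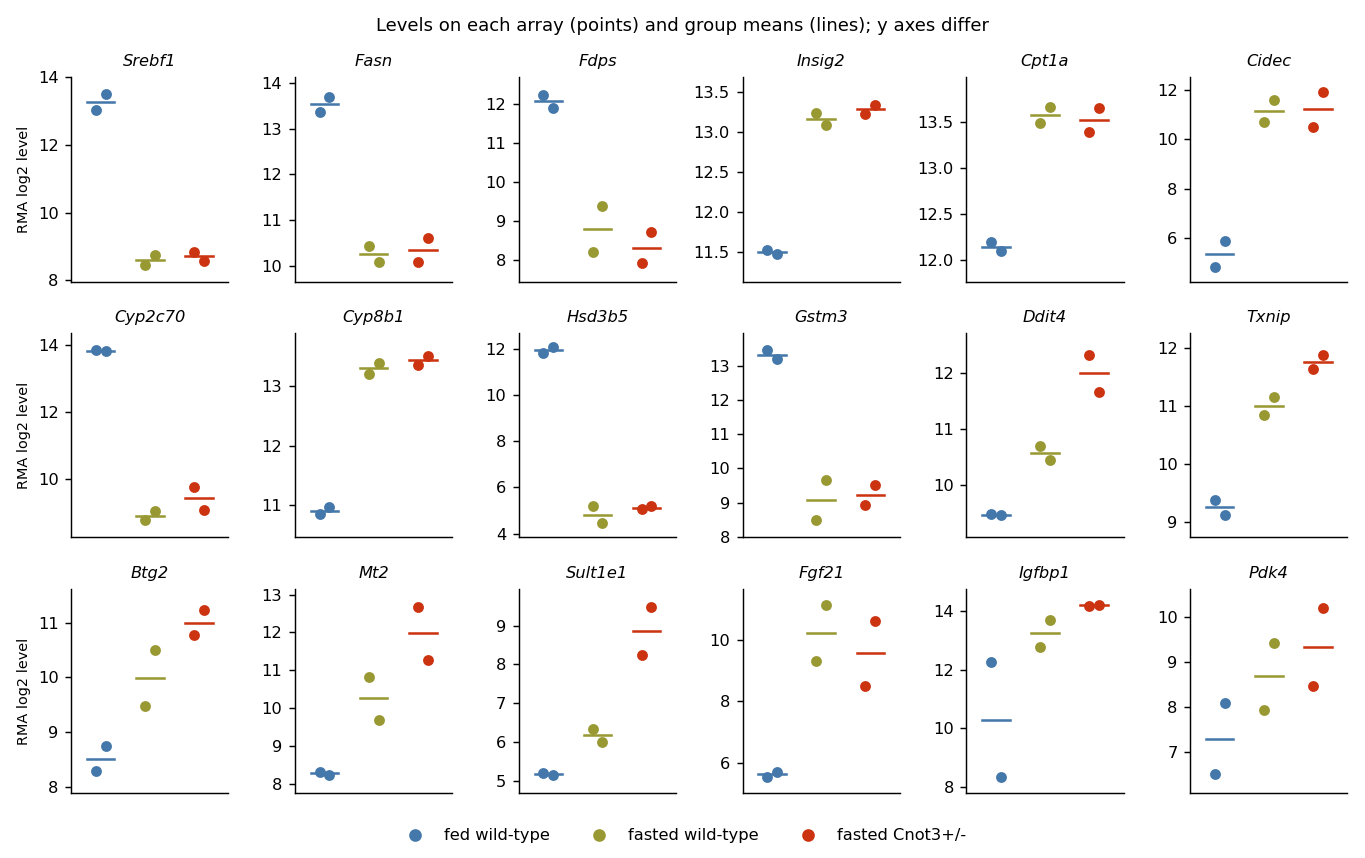
RMA log2 level (y axis, a different range in each panel) on each array (points) with group means (lines) for 18 genes, with the arrays of fed wild-type mice on the left and those of the 2 fasted groups beside them. The fed arrays lie close together for Srebf1, Insig2 and Cpt1a and far apart for Igfbp1 and Pdk4, and for Pdk4 the fasted Cnot3+/- arrays lie far apart as well.

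Genes known to be induced by glucocorticoids or repressed by insulin rose in many cases. Of 23 glucocorticoid response genes 9 rose and 1 fell (median 1.26), and of 28 insulin and FoxO response genes 9 rose and 1 fell (median 0.54). Both medians rested in part on the second fed array, without which they were 0.62 and 0.24. The rises on the first list numbered 14 without the first fed array, and those on the second list 4 without the second and 5 without either fasted wild-type array. Cdkn1a, a cell cycle inhibitor on both lists, read 7.38 and 6.89 in fed and 10.41 and 10.17 in fasted Cnot3+/- liver (difference 3.16, SE 0.18, adjusted p = 0.000589). Also on both, the mTORC1 inhibitor Ddit4 went from 9.47 and 9.46 to 12.33 and 11.67 (2.53, SE 0.21, adjusted p = 0.00226), and Fkbp5, a co-chaperone of the glucocorticoid receptor that is on the glucocorticoid list alone, rose by 1.34 (SE 0.16, adjusted p = 0.00523). The receptor gene Nr3c1 was the only fall on the glucocorticoid list (-0.64, adjusted p = 0.0277), a call lost whichever array was left out. Of these calls, 6 on the glucocorticoid list and 3 on the insulin and FoxO list remained with every array left out.

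The metallothioneins, small metal-binding proteins induced by zinc and glucocorticoids, were among the largest rises. Mt2 read 8.32 and 8.22 in fed and 12.69 and 11.26 in fasted Cnot3+/- liver, a difference of 3.70 (SE 0.49, adjusted p = 0.00712). Mt1 read 10.10 and 10.27 in fed and 14.13 and 13.07 in fasted Cnot3+/- liver (3.41, SE 0.47, adjusted p = 0.00763), but on its dimmer gene-specific probe set it differed by 0.78 and did not pass (adjusted p = 0.0848). The first Cnot3+/- array was the higher for both. Txnip, a brake on glucose uptake, rose from 9.38 and 9.12 to 11.64 and 11.87 (2.50, SE 0.16, adjusted p = 0.00089).

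Of 30 immediate early genes 4 rose and 0 fell (13.3%, against 7.56% of all genes), with fewer rises without the second fed array. Egr1, a zinc finger transcription factor, read 5.94 and 6.26 in fed and 9.60 and 10.64 in fasted Cnot3+/- liver (4.02, SE 0.66, adjusted p = 0.0151). Btg2, an antiproliferative protein that binds the CCR4-NOT deadenylase, read 8.28 and 8.74 in fed and 10.77 and 11.22 in fasted Cnot3+/- liver (2.49, SE 0.34, adjusted p = 0.00742). Gadd45g rose by 2.97 (SE 0.55, adjusted p = 0.0222) and the transcription factor Cebpd by 2.64 (SE 0.42, adjusted p = 0.0129). The calls of Egr1, Gadd45g and Cebpd were lost with an array left out (highest adjusted p = 0.0717 without the first fed array for Egr1, and 0.0822 and 0.0543 without the first Cnot3+/- array for the other two), and that of Btg2 was not.

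Some genes of amino acid stress and of autophagy rose. Of 29 Atf4 targets and stress genes 7 rose and 0 fell, but the list's median against fed liver was -0.03 for replicate 1 of Cnot3+/- liver and 0.70 for replicate 2, and 4 rose without the second Cnot3+/- or the second fed array. They include asparagine synthetase Asns, from 7.87 and 7.73 to 9.02 and 9.19 (1.30, SE 0.16, adjusted p = 0.00523), Atf5 (1.13, SE 0.15, adjusted p = 0.00712) and Sesn2 (1.13, SE 0.17, adjusted p = 0.01). Of 37 autophagy and lysosome genes 10 rose and 0 fell, and 8 of those calls remained with every array left out. Atg2a, which carries lipid to the growing autophagosome, read 8.69 and 8.56 in fed and 9.85 and 9.90 in fasted Cnot3+/- liver (1.25, SE 0.12, adjusted p = 0.00249). Wipi1, which binds phosphoinositides there, rose by 1.13 (SE 0.13, adjusted p = 0.0044), and Depp1, a FoxO target, by 1.16 (SE 0.13, adjusted p = 0.00422), or by 1.80 on a dimmer probe set specific to the gene.

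Fgf21, the fasting hormone made by liver under PPARalpha and Atf4, read 5.54 and 5.70 in fed liver, around background, and 8.50 and 10.62 in fasted Cnot3+/- liver, at least 15.1-fold higher (adjusted p = 0.0241). Its call was lost without either fed array, without the second Cnot3+/- array and with another variance model. The fasted Cnot3+/- arrays stood over 2 log2 units apart. Of 33 liver hormones and secreted regulators 3 rose and 6 fell, with a median of 0.02. Serpina6, the plasma carrier of glucocorticoids, went from 12.83 and 12.90 to 10.59 and 9.58 (-2.78, SE 0.29, adjusted p = 0.00317), and Serpina7, which carries thyroid hormone, from 8.88 and 8.85 to 4.51 and 3.54, under background, at least 9.34-fold lower (adjusted p = 0.00089). Angptl8, an insulin-induced inhibitor of lipoprotein lipase, fell from 9.25 and 12.35 to 6.72 and 6.88 (SE of the difference 0.83, adjusted p = 0.0304). Its call was lost without either Cnot3+/- array and without either fasted wild-type array.

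Genes of endoplasmic reticulum folding fell in 10 of 33 cases and rose in none (median -0.29). Sdf2l1, a cofactor of the chaperone BiP, read 9.67 and 10.03 in fed and 8.12 and 8.37 in fasted Cnot3+/- liver (-1.61, SE 0.16, adjusted p = 0.00276). The translocon subunit Sec61b went from 12.42 and 12.50 to 11.20 and 11.23 (-1.25, SE 0.13, adjusted p = 0.00335), and the translocon-associated Ssr1 and the disulfide isomerase Pdia6 fell by 0.98 (SE 0.11, adjusted p = 0.0045) and 1.02 (SE 0.13, adjusted p = 0.007). The groups of these 4 genes did not overlap, as holds for every gene that passed and for 48.0% of all genes. In the same arrays none of the 39 measured ribosomal protein genes and none of the 44 ribosome biogenesis genes passed, with medians of -0.10 and 0.18.

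Among enzymes that hydroxylate and conjugate drugs, steroids and retinoids there were more falls than rises. In the steroid and retinoid list 13 of 32 fell and 3 rose (median -0.44), among conjugation enzymes 13 of 39 fell and 3 rose (median -0.42), and among cytochromes P450 of families 1 to 3, 9 of 32 fell and 1 rose (median -0.33, or -0.22 with genes under background set at their bound). The falls among cytochromes P450 numbered 3 without the first fed or the second Cnot3+/- array and 4 without the second fed array, and those of the steroid and retinoid list 8 without the second fed array. Cyp2c70, which makes muricholic bile acids, read 13.87 and 13.82 in fed and 9.76 and 9.06 in fasted Cnot3+/- liver (-4.43, SE 0.23, adjusted p = 0.000394), 21.6-fold lower. Cyp8b1, the sterol 12-alpha-hydroxylase that makes cholic acid, went the other way, from 10.85 and 10.97 to 13.35 and 13.50 (2.52, SE 0.13, adjusted p = 0.000394). Both stand on the bile acid list, of whose 26 genes 3 rose and 5 fell, the latter including the reductase Akr1d1 (-1.80, SE 0.16, adjusted p = 0.00242) and the bile salt export pump Abcb11 (-1.30, SE 0.18, adjusted p = 0.00831).

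Glutathione transferases made up most of the conjugation enzymes that fell. Gstm3 read 13.46 and 13.18 in fed and 8.94 and 9.53 in fasted Cnot3+/- liver (-4.09, SE 0.37, adjusted p = 0.00244), Gsta4 fell by 2.03 (SE 0.15, adjusted p = 0.00134) and Gsta2 by 1.83 (SE 0.21, adjusted p = 0.00474). Genes of this family share sequence, so a probe set can take signal from a relative. Among uptake carriers Slc22a30 and Slc22a7, organic anion transporters, fell by 3.43 (SE 0.21, adjusted p = 0.000727) and 3.04 (SE 0.28, adjusted p = 0.00254). Cyp26a1, which breaks down retinoic acid, fell by 3.02 (SE 0.45, adjusted p = 0.0104), with the higher of its fasted Cnot3+/- arrays at 8.06 and the lower of its fed arrays at 9.96.

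The largest fall of all was that of Hsd3b5, a steroid dehydrogenase expressed in male liver. It read 11.84 and 12.08 in fed and 5.06 and 5.19, under background, in fasted Cnot3+/- liver, at least 79.6-fold lower (adjusted p = 0.000132). Hsd3b5 is one of 21 measured genes known for a sex difference in hepatocytes, of which 4 rose and 5 fell. The organic anion transporter Slco1a1, high in males, fell from 12.34 and 12.26 to 10.23 and 9.76 (-2.31, SE 0.24, adjusted p = 0.00329), while Sult1e1 and Fmo2, high in females, rose. Fmo2 rose by 2.24 (SE 0.21, adjusted p = 0.00254), and Sult1e1 is described with the fasted wild-type values. The list did not divide by sex. Elovl3, high in males, rose by 1.26 (SE 0.20, adjusted p = 0.0133), a call lost without the second fed array. Cyp2b9, high in females, fell to below background from fed levels of 6.94 and 5.34 (adjusted p = 0.028). The second of these fed levels was itself under background. The Cyp2b9 call was lost without either Cnot3+/- array and without either fasted wild-type array.

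Growth hormone sets much of this sex bias, and some genes of its pathway changed. The receptor Ghr went from 13.39 and 13.32 to 12.55 and 12.14 (-1.01, SE 0.16, adjusted p = 0.0131), its feedback inhibitor Cish from 9.08 and 8.27 to 6.89 and 7.31 (-1.57, SE 0.27, adjusted p = 0.0173), and Igfals, which stabilises IGF1 in plasma, fell by 1.55 (SE 0.29, adjusted p = 0.0244). Igfbp2, an IGF-binding protein, rose by 0.88 (SE 0.11, adjusted p = 0.0059), and the transcriptional repressor Bcl6 by 1.52 (SE 0.32, adjusted p = 0.0312). In all, 2 of 19 measured genes rose and 4 fell. Of the named calls only that of Igfbp2 remained with every array left out; the highest adjusted p was 0.0639 for Ghr, 0.0668 for Cish, 0.105 for Igfals and 0.149 for Bcl6.

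Several of the largest changes belonged to genes outside these pathways. Neat1, a long noncoding RNA that builds nuclear paraspeckles, read 7.85 and 9.38 in fed and 12.40 and 12.10 in fasted Cnot3+/- liver (3.63, SE 0.50, adjusted p = 0.00781), though its 2 probe sets differed in sign. Ccn2, a matrix-associated growth factor, read 7.13 and 6.28 in fed and 9.25 and 8.99 in fasted Cnot3+/- liver (2.41, SE 0.26, adjusted p = 0.00363), and the keratin Krt23 rose by 2.56 (SE 0.26, adjusted p = 0.00302). Neither Ccn2 nor Krt23 had overlapping groups, as holds for every gene that passed and for 48.0% of all genes. Enc1, an actin-binding protein, rose by 2.76 (SE 0.24, adjusted p = 0.00232), and Pla2g7, which hydrolyses platelet-activating factor, was at least 5.35-fold higher (adjusted p = 0.00108) from around background in fed liver.

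Among other falls, carbonic anhydrase 3, Car3, went from 14.75 and 14.74, near the top of the range of the arrays, to 12.24 and 11.57 (-2.85, SE 0.30, adjusted p = 0.00317). The water channel Aqp8 fell by 3.17 (SE 0.41, adjusted p = 0.00642). Bdh2, a cytosolic dehydrogenase and the only gene past the test among 5 of ketone body metabolism, read 9.58 and 9.69 in fed and 7.27 and 7.51 in fasted Cnot3+/- liver (-2.24, SE 0.17, adjusted p = 0.00145). The clock repressor Bhlhe40 read 10.61 and 11.39 in fed and 9.22 and 9.07 in fasted Cnot3+/- liver (-1.85, SE 0.24, adjusted p = 0.00628). It was the only one of 21 clock genes to pass (4.76%, below the 7.56% of all genes). These falls remained whichever array was left out.

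**Figure D4:**
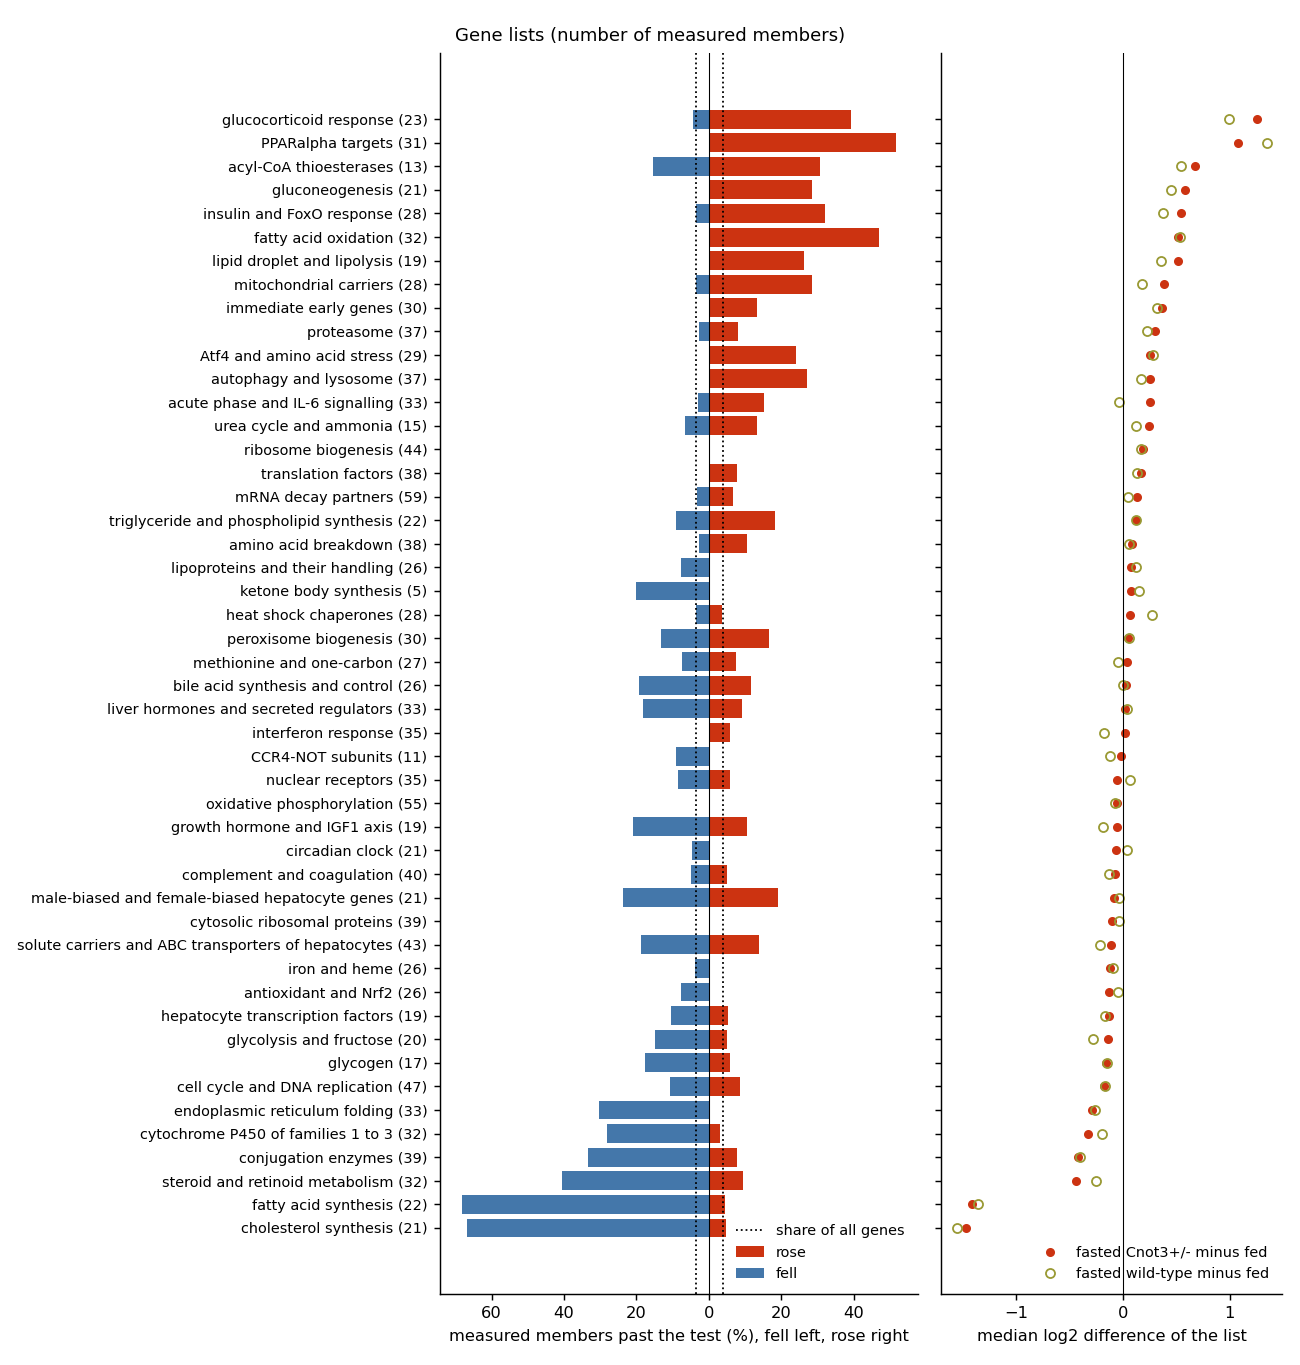
Share of the measured members of each of the 48 gene function lists that passed limma's test (left panel, x axis in percent, falls to the left and rises to the right, dotted lines at the shares of all genes) and the median log2 difference of each list (right panel) for fasted Cnot3+/- (filled) and fasted wild-type (open) against the same fed arrays. Cholesterol and fatty acid synthesis stand at the bottom with medians of -1.47 and -1.42, and glucocorticoid response and PPARalpha targets at the top with 1.26 and 1.08.

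Cnot3 itself was not shown to be lower. Its levels were 9.45 and 9.60 in fed liver and 9.40 and 9.16 in the livers labelled Cnot3+/-, a difference of -0.24 (SE 0.13, adjusted p = 0.374). Fasted wild-type liver read 9.27 and 9.32. A probe set outside the removed part would not show its loss, so the genotype is given as labelled. Of 11 measured CCR4-NOT genes 1 passed, the deadenylase Cnot6, which fell from 10.17 and 10.17 to 9.69 and 9.70 (-0.47, SE 0.11, adjusted p = 0.0487). That call was lost in each fit that left out an array, with an adjusted p of up to 0.166. Beside Cnot6 the largest differences among subunits were those of Cnot11 (0.47, adjusted p = 0.386) and Tnks1bp1 (-0.35, adjusted p = 0.212). Among 59 partners of mRNA decay 4 rose and 2 fell. The calls made up 10.2% of these partners and 9.09% of the CCR4-NOT genes, both near the 7.56% of all genes. Rises among the partners included Btg2 and the RNA-binding Zfp36l2 (1.09, SE 0.22, adjusted p = 0.0289). The Zfp36l2 call was lost when its probe sets were averaged, and with any array left out except the first fed array. Over all settings its highest limma adjusted p was 0.31. Argonaute 1, Ago1, fell by 0.84 (SE 0.12, adjusted p = 0.0105; 0.0605 without the second fed array).

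Since no fed Cnot3+/- liver was measured, the fasted wild-type arrays give the values to set beside these. Against the same fed arrays, fasted wild-type liver had 913 genes past the test (5.02%), 340 up and 573 down; both comparisons use the same 2 fed arrays, so their values are not independent. Wild-type and Cnot3+/- differences from fed liver were -4.67 against -4.57 for Srebf1, -3.27 against -3.18 for Fasn and 1.44 against 1.39 for Cpt1a. Cidec read 10.72 and 11.58, and Hsd3b5 5.17 and 4.47, in fasted wild-type liver. In the direct test of fasted Cnot3+/- against fasted wild-type liver limma called 0 genes (0%), with a smallest adjusted p of 0.0963. Of the 18193 genes tested, 1011 had an unadjusted p under 0.05, where a share of 0.05 is expected if no gene differs. With 2 arrays a group the absence of calls does not show that the fasted livers were alike.

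Of the changed genes above background in all groups, the 12 that lay farthest apart between the fasted groups are given as values that did not pass the direct test. Ddit4 read 10.70 and 10.45 in fasted wild-type liver and 12.33 and 11.67 in fasted Cnot3+/- liver, a difference of 1.43 between the fasted groups. Mt2 was 1.72 and Mt1 0.99 higher in Cnot3+/-, Egr1 1.36, Btg2 1.01 and Gadd45g 0.97 higher. The macrophage genes Cd163 and Ms4a6b were 1.04 and 1.10 higher. Those that were lower were Keg1 (-1.39), an acyltransferase-like gene, Angptl8 (-1.12), Nrep (-1.03) and Sdr9c7 (-1.01). In each of the 12 the fasted wild-type mean lay between the fed and the Cnot3+/- means, and the adjusted p of the direct test was at least 0.766. Picking genes changed from fed liver and far apart between the fasted groups favours that order, so the order is not a result.

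Sult1e1, the estrogen sulfotransferase, lay farther apart still. It read 5.21 and 5.16 in fed liver, under background, 6.35 and 6.01 in fasted wild-type and 8.25 and 9.48 in fasted Cnot3+/- liver, so that the Cnot3+/- group was at least 9.34-fold above fed (adjusted p = 0.00254). Against fasted wild-type liver it was 2.69 higher with all arrays (adjusted p = 0.438), and it passed that test (difference 3.30, adjusted p = 0.017) only when the first Cnot3+/- array was left out, which leaves a lone array assumed to vary like the other groups. Moxd1, a monooxygenase-like gene, read 4.57 and 4.72 in fed, 4.65 and 4.54 in fasted wild-type and 7.38 and 5.98 in fasted Cnot3+/- liver. Its Cnot3+/- level was at least 2.05-fold above fed (adjusted p = 0.0247), a call lost without either fed or either fasted wild-type array. It passed against fasted wild-type liver only without the second Cnot3+/- array, together with the activin inhibitor Fst, which read 8.87 and 6.16 on the Cnot3+/- arrays and is named after its values were seen. Apart from these 3 genes, no fit with an array left out made a call in the direct test.

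Markers of liver macrophages, the Kupffer cells, were higher in the fasted Cnot3+/- livers. All 13 measured markers were above background and had positive differences, and 7 of them passed, with a median of 0.79 and a range from 0.63 to 1.78. The scavenger receptor Cd163 read 7.64 and 8.34 in fed and 10.06 and 9.47 in fasted Cnot3+/- liver (1.78, SE 0.27, adjusted p = 0.0114). Marco rose by 1.65 (SE 0.24, adjusted p = 0.00986) and the complement gene C1qb by 1.03 (SE 0.16, adjusted p = 0.0114). The C1qb call was lost when its probe sets were averaged (limma adjusted p = 0.145). The first Cnot3+/- array, the one with the high 3′ over 5′ signals for 3 controls, stood 1.06 above fed at the median and the second 0.62, and only the call of Cd163 remained with every array left out. The calls numbered 10 without the second Cnot3+/- array, 3 without the first, 2 without either fed array and 4 without either fasted wild-type array. Summed on the linear scale the markers came to 7795 and 9221 in fed, 10535 and 11298 in fasted wild-type, and 17964 and 12670 in fasted Cnot3+/- liver. In whole liver more cells of a type and more RNA per cell cannot be told apart, and the part of RNA quality was not tested.

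**Figure D5:**
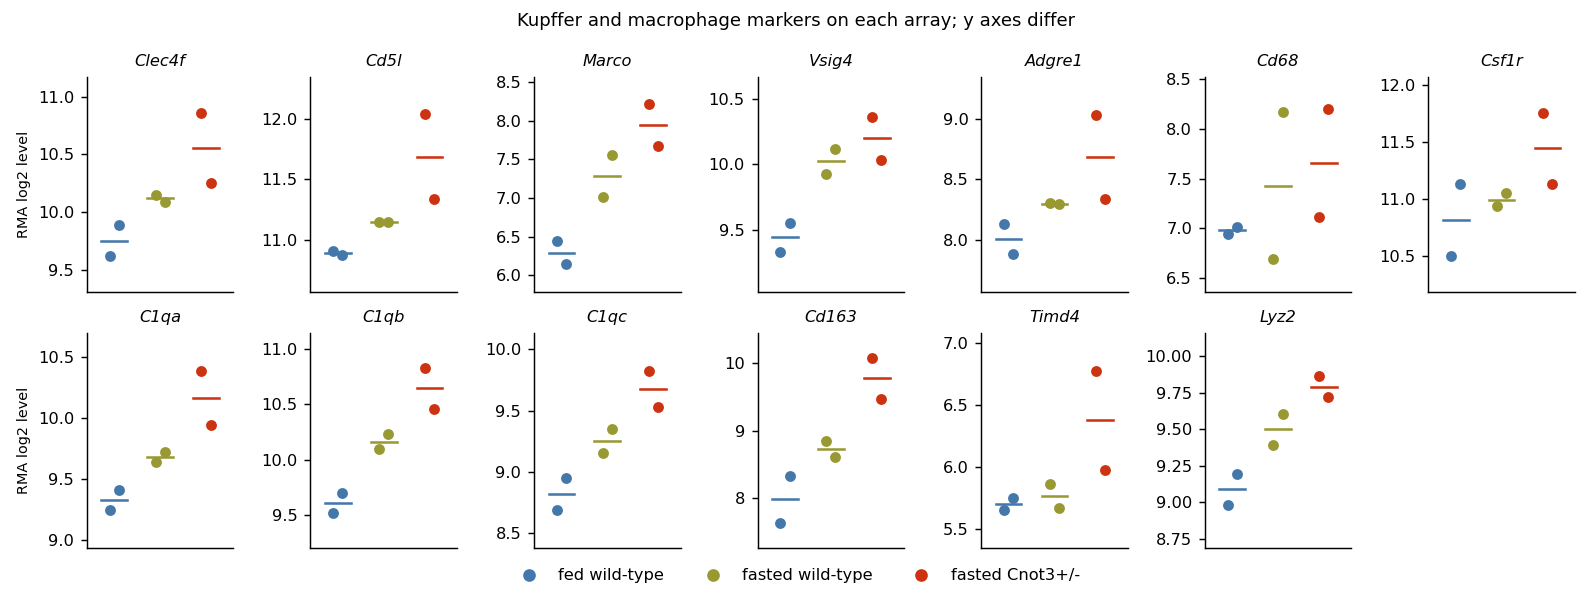
RMA log2 level (y axis, a different range in each panel) of the 13 Kupffer and macrophage markers on each array (points) with group means (lines). Each marker's mean is higher in fasted Cnot3+/- than in fed wild-type liver, and the first Cnot3+/- array is the higher of the pair for 12 of the 13.

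Other non-hepatocyte markers moved differently from gene to gene. Among 12 stellate cell and fibroblast markers 4 fell and 1 rose (median -0.39): Col3a1, a fibrillar collagen, fell from 9.73 and 9.51 to 7.97 and 6.79 (-2.24, SE 0.34, adjusted p = 0.0108; 0.055 without the first fed array), and Lrat, which stores vitamin A, fell from 8.74 and 8.55 to 7.73 and 7.56 (adjusted p = 0.00712). A second Col3a1 probe set, specific to the gene, differed by -0.43 (adjusted p = 0.0731). The proteoglycan Dcn rose by 0.70 (adjusted p = 0.0256), a call lost with any array left out except the second Cnot3+/- array. Of 10 sinusoidal endothelial markers 1 passed (10%), near the 7.56% of all genes. It was Lyve1, which went from 6.86 and 7.06 to 8.66 and 9.07 (1.90, SE 0.17, adjusted p = 0.00242). Among 5 exocrine pancreas markers, 3 of them above background in some group, the elastase gene Cela1 fell by 1.32 (SE 0.13, adjusted p = 0.00274), and their summed linear levels were 1614 and 1498 in fed and 745 and 806 in fasted Cnot3+/- liver. No marker of cholangiocytes, lymphocytes, neutrophils, red cells, fat, skeletal muscle or kidney and adrenal passed, and only 1 of 4 neutrophil and 1 of 5 muscle markers were above background in any group.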

How the data were processed

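Total liver RNA of 6 samples was hybridised to 6 Affymetrix mouse arrays. The authors deposited RMA values on the log2 scale, per the submitters' processing notes. The RMA version is not given in the sources used here. RMA equalises the arrays' distributions, so a change in total mRNA per cell cannot be seen, and the number of arrays limits the precision. Of 45101 probe sets, 64 were controls, 34945 named 1 gene, 932 several and 9160 none. Each of 18193 genes was read from its single-gene probe set with the highest mean over the 6 arrays. Of these genes, 18032 were found in RefSeq.

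Group means were fitted to all 6 arrays in limma 3.58.1 (lmFit, eBayes; R 4.3.3), with 3 residual degrees of freedom, and p-values were Benjamini-Hochberg adjusted over all genes with a threshold of 0.05. The code was tested on simulated data. Tables and plots used Python 3.11.15, pandas 2.3.3, numpy 2.4.6 and matplotlib 3.10.9. Alternatives were 4 arrays only, the replicate number as a block, cyclic loess, centring, other probe set rules, a filter on dim genes, other variance models and each array left out.

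The genes named were the 20 largest rises and 20 largest falls above background in both groups, the 8 largest each way with 1 group at or under it, up to 6 members of each list by p, Cnot3, the CCR4-NOT subunits, Pdk4 and Igfbp1, and the 12 called genes farthest apart between the fasted groups. Genes known only by a number or clone name were counted, not named. Acaca, Dhcr7, Elovl5, Fst, G6pc, Hmgcs1, Insig1 and Pck1 fall outside this rule and were chosen after their values were seen. Members and the 60 lists (48 of functions, 12 of cell types) were chosen with earlier results of these data known, and the spelling of G6pc was matched to the annotation afterwards. Counting a CCAAT box in any promoter of a gene was added after the first shares were seen.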

Additional observations from a re-analysis of the deposited data

How the results depend on the processing

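The number of genes past the test between fasted Cnot3+/- and fed liver was 1375 with all arrays, 857 when only the 4 arrays of the comparison were fitted, and 597 to 929 when 1 array was left out, lowest without the second fed array. For fasted wild-type against fed liver the count of 913 ranged from 137, without the first fasted wild-type array, to 1033. For fasted Cnot3+/- against fasted wild-type liver it was 0 to 2. Fits with an array left out have fewer residual degrees of freedom. With the replicate block the 3 counts were 1708, 1206 and 0, and Pdk4 passed (adjusted p = 0.00131). The replicate numbers were not taken to pair the mice, since the labels state no pairing. Deviations of equally numbered arrays correlated at 0.04 (fed and fasted wild-type), -0.01 (fed and fasted Cnot3+/-) and 0.45 (fasted wild-type and fasted Cnot3+/-). Whether equally numbered fasted arrays share a factor was not tested. Loess, centring, the other probe set rules, the dim-gene filter and the other variance models gave 1158 to 1495 calls in the first comparison. Centring on brighter genes moved the share of rises among calls from 51.3% to 44.1%, leaving out the first fed array moved it to 42.1% and the second to 55.4%, and no setting moved the median of all genes by more than 0.04. No gene named in the text changed direction under any setting. Only 26.7% of the calls remained in every one of the fits that left out an array, so small differences are the least certain. Genes near background have only bounds.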

Other observations

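Some genes of blood proteins and defence changed, in lists whose share past the test is to be read against 7.56% of all genes. Among 33 acute phase genes 5 rose and 1 fell (18.2%). Serpina3n, a protease inhibitor of the acute phase, read 11.20 and 11.31 in fed and 12.94 and 12.67 in fasted Cnot3+/- liver (limma adjusted p = 0.00242), and the endotoxin-binding protein Lbp rose by 1.51 (SE 0.16, adjusted p = 0.00317). The reductase Steap4 fell by 1.53 (SE 0.21, adjusted p = 0.0078). Among 40 complement and coagulation genes 2 rose and 2 fell (10%), near the share of all genes. Coagulation factor F11 fell by 1.46 (SE 0.14, adjusted p = 0.00254) and the mannose-binding lectin Mbl2 by 1.11 (SE 0.11, adjusted p = 0.00288), while protein S, Pros1, rose by 1.15 (SE 0.11, adjusted p = 0.00286). Of 35 interferon response genes 2 rose (5.71%), below the share of all genes, Rsad2 by 1.17 (SE 0.14, adjusted p = 0.00556) and Usp18 by 1.20 (SE 0.21, adjusted p = 0.0194). The call of Usp18 was lost without either fed array and without the first Cnot3+/- array. The macrophage markers, higher in the same livers, were not set against these genes, and their part was not tested.

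Among 47 cell cycle and DNA replication genes 4 rose and 5 fell (19.1%, against 7.56% of all genes). The falls were all lost without the second fed array. The replication helicase subunit Mcm6 read 8.37 and 8.72 in fed and 6.85 and 7.32 in fasted Cnot3+/- liver (adjusted p = 0.0145), and thymidine kinase, Tk1, fell by 1.56 (SE 0.29, adjusted p = 0.0229). Both calls were lost without the second fed array. That of Mcm6 was also lost without the first Cnot3+/- array, and that of Tk1 without the first fed or the second Cnot3+/- array. Of 15 urea cycle genes 2 rose and 1 fell (20%, against 7.56% of all genes), all with differences under 1 on the log2 scale. Argininosuccinate lyase, Asl, rose by 0.81 and ornithine aminotransferase, Oat, by 0.68, while ornithine transcarbamylase, Otc, fell by 0.72 (limma adjusted p = 0.0108, 0.0231 and 0.032). All 3 calls were lost with an array left out. Gamt, which makes creatine, fell from 11.87 and 12.07 to 10.18 and 10.22 (-1.77, SE 0.17, adjusted p = 0.00254).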
